A study of Mus musculus with 4 samples.

Results

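DNA methylation was examined at 4 genes that encode transcription factors of blood stem cells, Runx1, Meis1, Gata2 and Spi1 (also named Sfpi1, encoding PU.1). Each gene was taken as a fixed window of mouse genome build mm9. The windows were chr16:92590000-92840000 for Runx1, chr11:18770000-18930000 for Meis1, chr6:88130000-88170000 for Gata2 and chr2:90900000-90970000 for Spi1. Each window was divided into steps of 2 kb, and a step was reported where every library held 10 or more observations, an observation being a read over a CpG. Of the 260 steps in the windows, 147 held a covered CpG and 60 were reported, against 92005 reported steps in the whole genome. Runx1 gave 26 of these steps, Meis1 12, Gata2 10 and Spi1 12.

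The assay was reduced representation bisulfite sequencing, which reads CpGs near restriction sites and gives for each CpG the share of reads that kept a cytosine, the methylation level. The 4 libraries came from sorted cells of wild-type and of Sca1-BCL6Δ mice, bred from the CBAxC57BL/6J strain. Haematopoietic stem and progenitor cells (HSPCs) were taken from bone marrow as Sca1+Lin-, and mature B cells from peripheral blood as B220+. Sca1-BCL6Δ mice carried a loxP-flanked mouse Bcl6 cDNA driven by the Sca1 promoter, together with Cre recombinase in the Cd79a locus (mb1-Cre), which was meant to delete the transgene in B lineage cells. The sources used here do not give the age or the health of the mice, nor which of the 2 transgenic lines made went into the libraries. Each library was a pool of DNA from 6 to 9 mice, so no group had a replicate. Every test below therefore compared the reads of a pair of libraries, not conditions.

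RUNX1 is the DNA-binding subunit of core binding factor and is needed for the first blood stem cells to form. Its gene is transcribed from a distal and a proximal promoter. MEIS1 is a homeodomain partner of HOX and PBX proteins, GATA2 is a zinc finger factor that maintains stem cells, and PU.1 is an ETS factor whose dose directs myeloid and lymphoid fate. Meis1 and Gata2 are known to be switched off as B cells form, whereas Runx1 and Spi1 stay active in that lineage. CpG-rich promoters are usually unmethylated whether or not the gene is active, while methylation of CpG-poor enhancers can change between cell types.

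The promoters show which CpGs could be read. The sequences below, from RefSeq (GRCm38.p6), are the 250 bases before a start site, written 5′ to 3′ along the gene, and capitals mark the CpGs that a read covered in any library. A promoter was placed on mm9 by matching the spacing of its CpGs to the covered CpGs. Of the 35 CpGs in the proximal Runx1 entry (these 250 bases and 50 beyond the start), 25 coincided with covered CpGs, against 4 at the next best position, at chr16:92697575-92697824 on the minus strand for the 250 bases shown. For the Gata2 promoter 14 of 29 coincided, against 2, at chr6:88148408-88148657 on the plus strand. The Meis1 promoter met only a looser criterion that was added after the data were seen, with 5 of 15 CpGs against 2, at chr11:18918973-18919222 on the minus strand.
Runx1 proximal promoter: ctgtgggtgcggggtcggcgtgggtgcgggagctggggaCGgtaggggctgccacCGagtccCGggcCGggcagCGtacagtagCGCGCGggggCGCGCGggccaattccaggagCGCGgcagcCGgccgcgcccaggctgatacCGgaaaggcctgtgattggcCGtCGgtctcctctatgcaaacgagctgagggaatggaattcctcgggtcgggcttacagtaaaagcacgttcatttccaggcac
Gata2 promoter: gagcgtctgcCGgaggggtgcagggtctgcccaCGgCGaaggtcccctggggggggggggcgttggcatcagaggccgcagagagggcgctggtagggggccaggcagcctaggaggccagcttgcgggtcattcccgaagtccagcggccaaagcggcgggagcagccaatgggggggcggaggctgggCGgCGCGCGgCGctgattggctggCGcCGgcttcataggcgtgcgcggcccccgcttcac
Meis1 promoter: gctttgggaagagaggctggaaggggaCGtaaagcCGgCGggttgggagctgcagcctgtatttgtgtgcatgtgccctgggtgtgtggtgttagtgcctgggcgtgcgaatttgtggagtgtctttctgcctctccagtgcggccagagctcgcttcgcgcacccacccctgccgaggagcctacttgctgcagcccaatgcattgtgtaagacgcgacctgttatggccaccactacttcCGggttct
Runx1 distal promoter: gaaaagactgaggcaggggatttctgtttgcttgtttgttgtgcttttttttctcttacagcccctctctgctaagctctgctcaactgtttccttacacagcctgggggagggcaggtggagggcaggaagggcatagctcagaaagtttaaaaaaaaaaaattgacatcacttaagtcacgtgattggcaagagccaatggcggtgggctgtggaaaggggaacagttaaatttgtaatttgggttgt

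The covered CpGs lay in runs beside the recognition sites of the enzymes used, CCGG for MspI and TCGA for TaqI. The proximal Runx1 sequence held 4 CCGG sites and 17 of its 27 CpGs were covered. Gata2 held 2 CCGG sites with 10 of 24 CpGs covered, and Meis1 held 2 with 4 of 13 covered. The distal Runx1 sequence held 2 CpGs and neither CCGG nor TCGA on either strand, and it was not placed. Over all 32851 RefSeq mouse promoters, 47.05% held CCGG, 18.54% held TCGA and 54.61% held either in these 250 bases. A second Gata2 promoter in the table was not placed, and there the levels were not analysed. Spi1 had no promoter entry to place, so its steps, low stretches and CpGs are given without a distance from its start.

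The libraries covered 1012002 to 1414224 CpGs each, with a median of 4 to 9 reads per CpG, lowest in Sca1-BCL6Δ HSPCs and highest in wild-type B cells. In the windows 1005 CpGs were covered in some library and 589 in all 4. The median step held 46 observations in HSPCs and 83 in B cells of wild-type mice, and 28 in HSPCs and 33 in B cells of Sca1-BCL6Δ mice. Intervals given are 95% Wilson intervals that count each read once. With 1 library per group, they and all p-values cover counting error only. No removal of PCR duplicates was recorded, and any duplicates left would make the intervals too narrow and the p-values too small. The median width of the interval of a step was 30.4 percentage points in Sca1-BCL6Δ HSPCs and 15.8 in wild-type B cells. The wild-type HSPC library stood apart from the other 3 across the genome. Steps were classed by the mean level of the B cell libraries of both genotypes, so B cell levels within a class follow from the rule. At steps of 80% or more, the median level of wild-type HSPCs was 80%, against 94.6% in Sca1-BCL6Δ HSPCs. The B cell medians there were 95.8% (wild-type) and 96.6% (Sca1-BCL6Δ). At steps under 20% the shift was the other way, with a median of 11.97% in wild-type HSPCs and 9.52% in Sca1-BCL6Δ HSPCs. The B cell medians at those steps were 10% (wild-type) and 8.33% (Sca1-BCL6Δ). The wild-type HSPC library was the highest of the 4 at 42.41% of them and the lowest at 12.16%. In the windows it was the highest at 10 of the 17 such steps and the lowest at 0. The wild-type HSPC library was the lowest of the 4 at 58.7% of all steps and the highest at 11.8%. In the windows it was lowest at 23 of 60 steps and highest at 12, so results that rest on it are given with the Sca1-BCL6Δ HSPC library in its place as well. The cell types could hardly be checked from methylation, since the promoters of 0 of 7 B cell marker genes and 1 of 4 HSPC marker genes were placed. That promoter was of Flt3, a cytokine receptor gene of progenitors, with 4.44% in HSPCs and 9.35% in B cells of wild-type mice, and 12.5% in HSPCs and 8.33% in B cells of Sca1-BCL6Δ mice.

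The 4 genes differed in their overall methylation. The Runx1 window had a pooled level of 56.3% (interval 53.1 to 59.4) in HSPCs and 66.6% (64.4 to 68.7) in B cells of wild-type mice, and 71.5% (67.5 to 75.1) in HSPCs and 66.0% (62.3 to 69.5) in B cells of Sca1-BCL6Δ mice. The Meis1 window was the least methylated in each library, with 21.8% in HSPCs and 22.0% in B cells of wild-type mice, and 17.2% in HSPCs and 19.1% in B cells of Sca1-BCL6Δ mice. The Gata2 window lay between them, with 38.2% in HSPCs and 43.0% in B cells of wild-type mice, and 41.0% in HSPCs and 34.7% in B cells of Sca1-BCL6Δ mice. The Spi1 window had 53.1% in HSPCs and 54.6% in B cells of wild-type mice, and 46.4% in HSPCs and 45.4% in B cells of Sca1-BCL6Δ mice. These pooled levels depend on which CpGs were read, since CpG-rich low regions give more observations than the rest. Steps were also counted by their mean level in the B cell libraries of both genotypes. At 80% or more were 18 of 26 Runx1 steps, against 0 of 12 for Meis1, 2 of 10 for Gata2 and 6 of 12 for Spi1. Steps under 20% by this mean numbered 2 in Runx1, 7 in Meis1, 4 in Gata2 and 4 in Spi1. In all 17 of 60 steps (28.33%) were under 20%, compared with 18.83% of all steps in the genome.

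**Figure D1:**
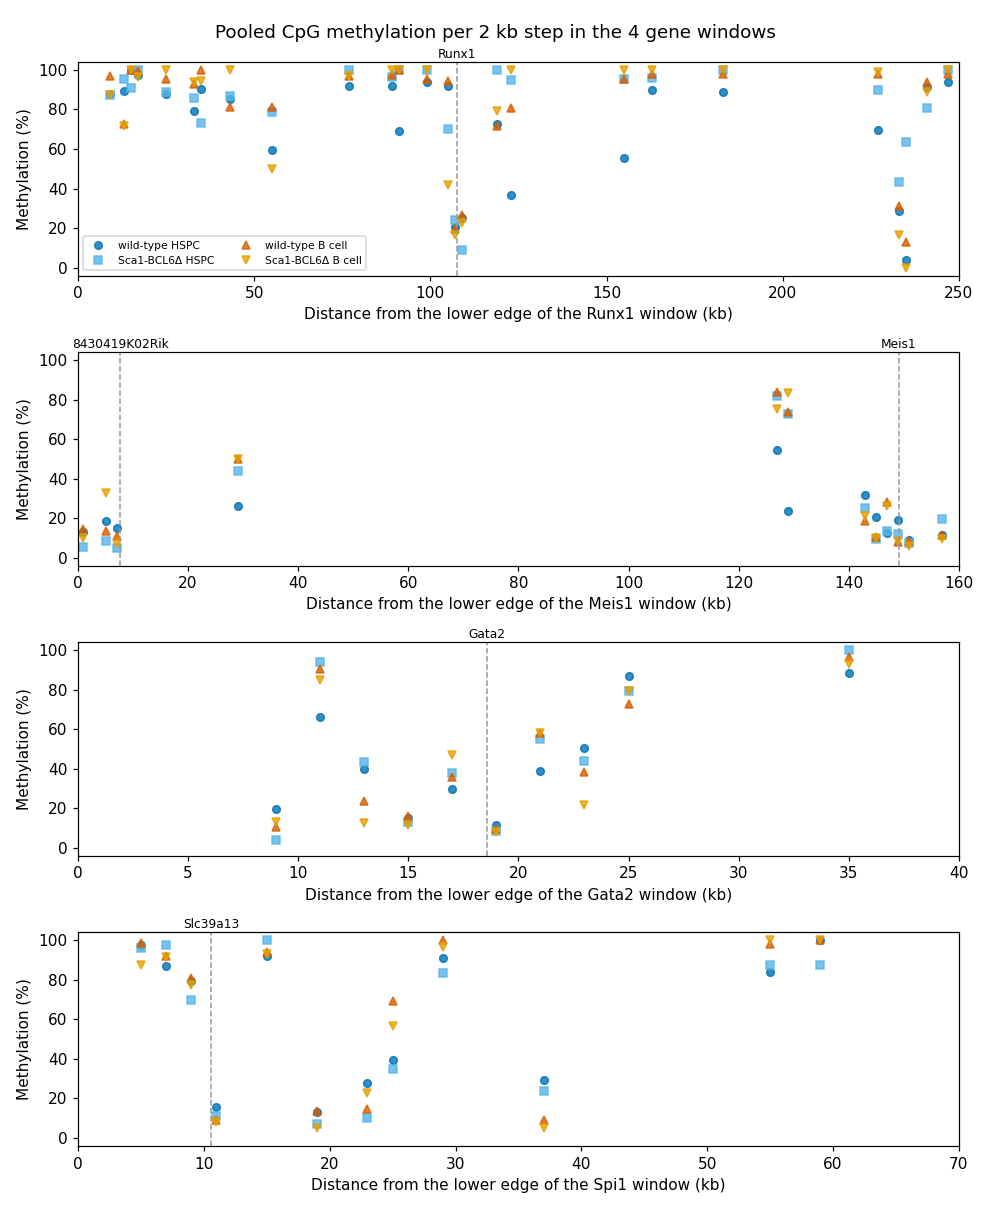
Pooled methylation (%) of each reported 2 kb step, at its centre, against the distance from the lower edge of the window in kb; each point is 1 library (blue circles and squares HSPCs, orange and yellow triangles B cells), and dashed lines mark placed promoters. Runx1 is mostly above 80% with a dip at its proximal promoter and, on fewer reads, at the adjoining steps 92822001 and 92824001. The Meis1 steps near either end of the window are low in all 4 libraries.

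The placed promoters of Runx1, Gata2 and Meis1 lay in stretches of low methylation shared by the 4 libraries. The low stretches described here were delimited after the data were seen, from the 4 libraries summed, and no test was made on them. Each held 10 or more covered CpGs and was cut by a limit of 40% on the level over 5 neighbouring CpGs. A low level inside a stretch and a rise at its edges follow in part from that rule. Around the proximal Runx1 promoter, 70 covered CpGs over 2386 bp (chr16:92696858-92699243) had a level of 13.2% (9.12 to 18.8) in HSPCs and 7.36% (4.93 to 10.9) in B cells of wild-type mice, and 14.0% (7.71 to 24.1) in HSPCs and 11.5% (6.66 to 19.1) in B cells of Sca1-BCL6Δ mice. All 4 intervals overlapped. In the 1000 bp on either side the level over the 4 libraries together was 85.2% and 80.1%. Single reads across 3 or more CpGs of the stretch were mostly free of methylation, with 73.3% of 131 such reads in wild-type HSPCs and 76.3% of 38 in Sca1-BCL6Δ HSPCs. Of such reads from B cells, 81.8% of 203 (wild-type) and 79.0% of 62 (Sca1-BCL6Δ) were unmethylated. Within the 300 bases of the promoter entry itself, the levels were 17.7% (8.65 to 32.8) in HSPCs and 6.50% (2.39 to 16.5) in B cells of wild-type mice, and 21.2% (5.84 to 53.7) in HSPCs and 14.9% (4.31 to 40.7) in B cells of Sca1-BCL6Δ mice, with only 9 reads in Sca1-BCL6Δ HSPCs.

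At Gata2 the promoter lay in a stretch of 3506 bp (chr6:88146518-88150023) with 56 covered CpGs. Its level was 12.4% (7.32 to 20.3) in HSPCs and 11.3% (7.67 to 16.2) in B cells of wild-type mice, and 8.44% (3.86 to 17.5) in HSPCs and 9.36% (5.12 to 16.5) in B cells of Sca1-BCL6Δ mice. All 4 intervals overlapped, including those of B cells, in which Gata2 is known to be silent. The 300 bases of the promoter entry had 4.69% in HSPCs and 11.96% in B cells of wild-type mice, and 30.3% in HSPCs and 6.45% in B cells of Sca1-BCL6Δ mice. The value of Sca1-BCL6Δ HSPCs came from 10 of 33 observations on 7 reads (9.05 to 65.5), and its interval overlapped the other 3. At the 4 CpGs there with 3 or more reads in that library, at 14 to 36 bases past the start, it had 0 methylated of 4 reads each. The window held 3 more low stretches, and the longest of these, of 1025 bp (chr6:88143558-88144582), ranged from 4.25% to 12.9% over the libraries. The one farthest upstream, of 544 bp (chr6:88139486-88140029) had 21.4% in HSPCs and 13.5% in B cells of wild-type mice, and 6.90% in HSPCs and 13% in B cells of Sca1-BCL6Δ mice.

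The Meis1 window held 6 low stretches, of which those at chr11:18774182-18777045 and chr11:18777049-18777975 adjoined each other. It was 160 kb long and the Gata2 window 40 kb, so the numbers of stretches are not compared between genes. The stretch with the placed promoter spanned 3237 bp (chr11:18917836-18921072) with 65 covered CpGs. Its level was 14.6% (9.73 to 21.3) in HSPCs and 7.92% (5.13 to 12.03) in B cells of wild-type mice, and 10.04% (5.27 to 18.3) in HSPCs and 7.54% (4.01 to 13.7) in B cells of Sca1-BCL6Δ mice. The 300 bases of the promoter entry had 25% of 28 observations (9.58 to 51.2) in HSPCs and 16.1% of 62 (7.09 to 32.6) in B cells of wild-type mice, and 12.5% of 16 (2.24 to 47.1) in HSPCs and 27.8% of 18 (9.04 to 59.8) in B cells of Sca1-BCL6Δ mice. All 4 intervals overlapped, both over the stretch and over the entry, and the order of the libraries differed between them. The step that holds the Meis1 start (chr11:18918001-18920000) had 19.0% in HSPCs and 7.73% in B cells of wild-type mice, and 11.97% in HSPCs and 8.33% in B cells of Sca1-BCL6Δ mice. Both B cell libraries were below both HSPC libraries there, but the difference between the wild-type libraries, -11.24 percentage points, was not called (chi-square adjusted p = 0.1901). Only the looser criterion placed the promoter of 8430419K02Rik, a neighbouring RIKEN gene, at the far end of the window. The steps around it, 142 kb or more past the Meis1 start, ranged from 4.69% to 33.0%. The highest of these values was Sca1-BCL6Δ B cells at chr11:18774001-18776000, beside 13.3% in the wild-type B cells, and 18.8% (wild-type) and 8.33% (Sca1-BCL6Δ) in HSPCs.

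The Spi1 window held 2 low stretches. The first, of 1092 bp (chr2:90909702-90910793), contained the placed promoters of Slc39a13, a zinc transporter gene, and of Gm39874, a predicted gene. It had 15.8% in HSPCs and 9.29% in B cells of wild-type mice, and 10.7% in HSPCs and 8.09% in B cells of Sca1-BCL6Δ mice. In the 300 bases of the Slc39a13 entry alone wild-type HSPCs had 42.6% of 54 observations on 12 reads (19.97 to 68.8), beside 7.04% in wild-type B cells (2.12 to 20.9), while the Sca1-BCL6Δ libraries had only 2 and 4 reads there. The second, of 370 bp (chr2:90918966-90919335) with 17 CpGs, had 9.30% in HSPCs and 8.43% in B cells of wild-type mice, and 8.33% in HSPCs and 5.26% in B cells of Sca1-BCL6Δ mice. Further low steps stood apart from these stretches. At chr2:90922001-90924000 the level was 27.6% in HSPCs and 14.9% in B cells of wild-type mice, and 10% in HSPCs and 22.7% in B cells of Sca1-BCL6Δ mice, on 3 CpGs. The difference of -17.59 points between the HSPC libraries was the largest fall of any Spi1 step in that comparison, and the adjusted p was 1.

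**Figure D2:**
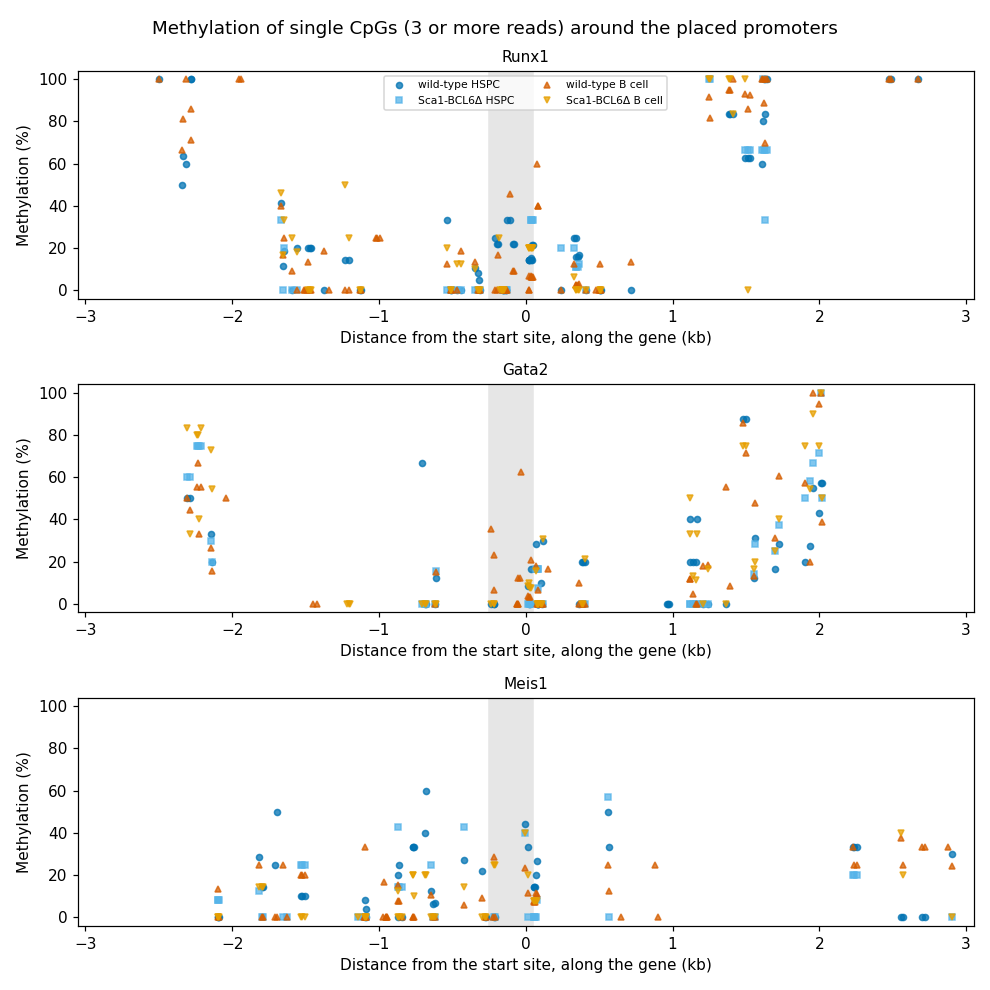
Methylation (%) of each CpG with 3 or more reads in a library, against its distance from the placed start site in kb, negative upstream, for Runx1 (proximal), Gata2 and Meis1; symbols are the 4 libraries and grey marks the promoter entry from 250 bases before to 50 after the start. The low stretch of 2386 bp at Runx1 is bounded by highly methylated CpGs on both sides, and that of Gata2 by intermediate ones.

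Other transcription factor genes of blood formation were compared by the same placement. Of 28 such genes, 9 had a placed promoter with reads in all 4 libraries, and 8 of the 9 were under 20% in each, compared with 76.6% of all 6149 placed promoters with such reads. Ikzf1, encoding the lymphoid factor IKAROS, had 9.49% in HSPCs and 1.61% in B cells of wild-type mice, and 3.06% in HSPCs and 0.980% in B cells of Sca1-BCL6Δ mice. Runx3, a paralogue of Runx1, had 2.52% in HSPCs and 6.92% in B cells of wild-type mice, and 5.88% in HSPCs and 1.84% in B cells of Sca1-BCL6Δ mice. The exception was Tal1, encoding a basic helix-loop-helix partner of GATA factors. Its promoter had 0% of 26 observations in wild-type HSPCs and 24.2% of 33 in Sca1-BCL6Δ HSPCs. The 0% allows up to 11.5% if every observation is counted as independent. CpGs on the same read are not, so the limit is too low, and no interval by reads was made for this promoter. In B cells Tal1 had 1.67% in wild-type and 12% in Sca1-BCL6Δ. None of the 9 was 20 percentage points or more apart in any of the other comparisons. Of the T cell markers 1 of 5 was placed, Tcf7, at 1.02% to 12.9%, and no myeloid (of 5) or erythroid (of 4) marker was placed.

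The first comparison asked how the HSPC libraries differed between genotypes, that is, while the transgene was meant to be active. A step was called where a Cochran-Mantel-Haenszel chi-square test stratified by CpG gave an adjusted p under 0.05, by Benjamini-Hochberg over all steps of the genome, and the levels were 20 percentage points or more apart. None of the 60 steps was called, against 0.0152% of 91939 steps in the genome. At an unadjusted p under 0.05 there were 6, or 10%, against 6.62% in the genome. Fisher's exact test on single CpGs with 10 or more reads in both libraries called 0 of 52, against 0.037% in the genome, with 1 at an unadjusted p under 0.05 (genome 4.44%). Without any test, 9 steps were 20 points or more higher in Sca1-BCL6Δ HSPCs and 1 was lower, 16.67% of the steps, against 27.4% in the genome (23.8% higher and 3.56% lower). The median difference was 1.95 points over the 60 steps, 6.04 in Runx1, -4.28 in Meis1, 0.49 in Gata2 and -5.25 in Spi1, compared with 8.32 over all steps.

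The smallest adjusted p in that comparison, 0.1149, belonged to a Gata2 step centred 7.7 kb before the placed start (chr6:88140001-88142000). Its level was 66.0% (57.3 to 73.7) in HSPCs and 90.7% (86.55 to 93.7) in B cells of wild-type mice, and 93.9% (85.7 to 97.5) in HSPCs and 85.0% (76.0 to 91.0) in B cells of Sca1-BCL6Δ mice. Wild-type HSPCs stood below the other 3, whose intervals overlapped each other. At Meis1, a step 20 kb past the placed start (chr11:18898001-18900000) had 23.5% (9.56 to 47.3) in wild-type HSPCs and 72.7% (43.4 to 90.3) in Sca1-BCL6Δ HSPCs, on 2 CpGs only (chi-square adjusted p = 0.353). Runx1 at chr16:92712001-92714000, 15.4 kb before its proximal start, had 36.7% in HSPCs and 80.7% in B cells of wild-type mice, and 95% in HSPCs and 100% in B cells of Sca1-BCL6Δ mice (adjusted p of the HSPC comparison 0.537). At each of these 3 steps wild-type HSPCs were lowest, as they were over most of the genome.

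The widest gap between the HSPC genotypes in the 4 windows, 59.93 points, was at a Runx1 step with few reads. At chr16:92824001-92826000, 127.4 kb before the proximal start, the level was 3.70% (0.376 to 28.1) of 27 observations in wild-type HSPCs and 63.6% (25.5 to 90.0) of 11 in Sca1-BCL6Δ HSPCs. In B cells it was 12.9% (5.68 to 26.9) of 85 observations in wild-type and 0% of 17 in Sca1-BCL6Δ (0 to 32.4). Sca1-BCL6Δ HSPCs were the highest of the 4, but that value rested on 5 reads and the adjusted p was 0.884.

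In B cells, in which the transgene should have been deleted, the libraries of the genotypes were closer than in HSPCs. The HSPC comparison included the wild-type HSPC library, which stood apart across the genome, and the depths differed. The cause was not tested. None of 60 steps was called, against 0.00218% in the genome, and 2 had an unadjusted p under 0.05, or 3.33% against 1.83%. Of 126 CpGs tested, 0 were called, against 0.0172%, with 4 at an unadjusted p under 0.05, or 3.17% against 1.68%. Without a test, 0 steps were 20 points or more higher in Sca1-BCL6Δ B cells and 2 were lower, against 5.26% of steps in the genome (2.27% higher and 2.99% lower). Both lay in Runx1, at chr16:92694001-92696000 with a wild-type level of 94.2% and a Sca1-BCL6Δ level of 41.7%, and at chr16:92644001-92646000 with 81.1% and 50%. The first value of 41.7% rested on 12 observations from 2 reads. The largest rise was at Meis1 (chr11:18774001-18776000), by 19.65 points (chi-square adjusted p = 1).

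**Figure D3:**
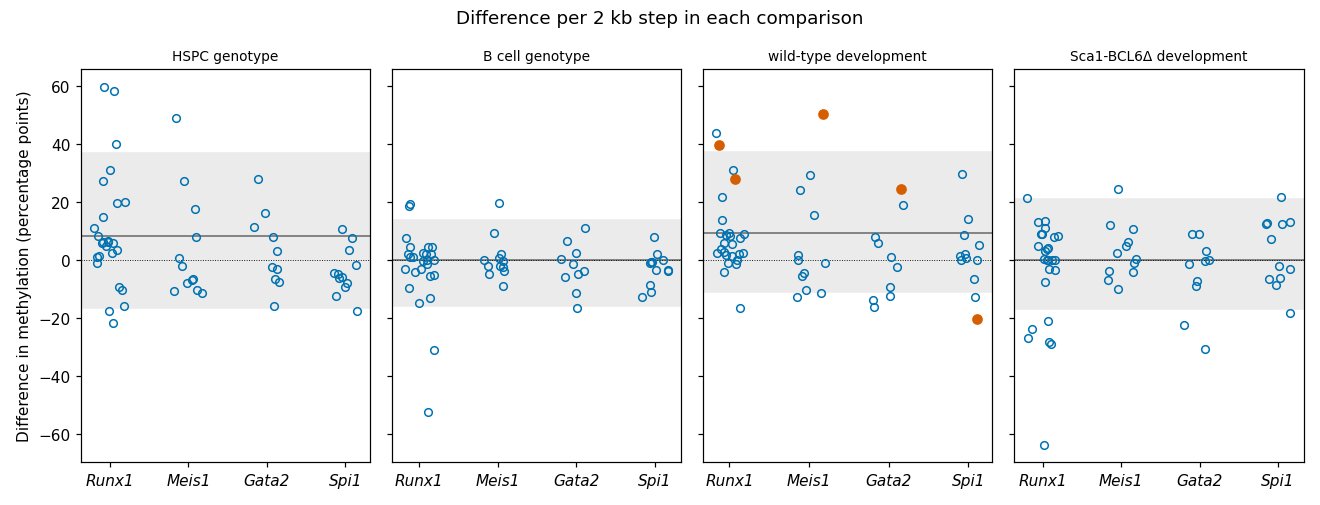
Difference in methylation (percentage points) per reported 2 kb step in each of the 4 comparisons, Sca1-BCL6Δ minus wild-type in the genotype panels and B cells minus HSPCs in the development panels, by gene; filled points are called steps. Grey spans the 5th to 95th percentile of all steps of the genome and the grey line is their median, which is 8.32 points in the HSPC comparison and 9.38 in wild-type development, while both Sca1-BCL6Δ development and B cell genotype are centred on 0.

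From wild-type HSPCs to wild-type B cells, 5 of 60 steps were called, 4 higher and 1 lower in B cells. In the genome 4.09% of steps were called, 3.95% higher and 0.146% lower, and with 60 steps nothing particular to the genes is read from a count of 5. The median difference was 2.32 points over the 60 steps, compared with 9.38 over all steps. Of 191 CpGs tested, 5 were called, all higher in B cells, against 0.734% in the genome, 0.682% being higher. This comparison shares its wild-type HSPC library with the HSPC genotype comparison.

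The Gata2 step at chr6:88140001-88142000, given above, rose by 24.72 points from wild-type HSPCs to wild-type B cells (chi-square adjusted p = 3.894e-05). Of its 26 CpGs with 3 or more reads in both libraries, 19 were higher in B cells, 6 were equal and 1 was lower. Single reads differed too. Of reads across 3 or more CpGs, 37.8% of 37 were fully methylated in wild-type HSPCs, compared with 80.6% of 103 in wild-type B cells, 88.6% of 35 in Sca1-BCL6Δ HSPCs and 75.7% of 37 in Sca1-BCL6Δ B cells. Partly methylated reads made up 48.6% in wild-type HSPCs. Of the CpGs called singly, 3 were in this step, at 88140648, 88141006 and 88141235. The CpG at 88141006 had 41.7% of 12 reads in wild-type HSPCs and 100% of the 25 wild-type B cell reads and of the 9 HSPC and 10 B cell reads from Sca1-BCL6Δ mice (Fisher's exact test, adjusted p = 0.02217). Another Gata2 CpG, at 88151989 and past the start, had 45.0% of 40 reads in HSPCs and 94.1% of 34 in B cells of wild-type mice, and 88.9% of 9 in HSPCs and 100% of 4 in B cells of Sca1-BCL6Δ mice (Fisher's exact test, adjusted p = 0.00471). Its step, chr6:88150001-88152000, had a difference of 19.04 points, just under the 20 required (chi-square adjusted p = 0.00137). It was called at 20.52 points when only CpGs covered in all 4 libraries were used, and at 21.23 with CpGs of 5 or more reads in both libraries.

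This Gata2 step began at an edge, where the low stretch that ends at 88140029 gave way to methylated CpGs. In the 1000 bp after that stretch the level over the 4 libraries together was 86.8%. At Meis1, the step at chr11:18898001-18900000 had 73.9% (57.5 to 85.6) in wild-type B cells and 83.3% (43.6 to 97.0) in Sca1-BCL6Δ B cells, beside the HSPC values above, and wild-type HSPCs were lowest by far. It rose by 50.38 points between the wild-type libraries (chi-square adjusted p = 0.01243), with 1 CpG left in the test after neighbours on the same reads were removed. That CpG, at 18899101, was also called singly, with 17.6% of 17 reads in wild-type HSPCs and 77.1% of 35 in wild-type B cells (Fisher's exact test, adjusted p = 0.02094).

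Runx1 had 2 called steps, both far before the proximal start. Their distance from the distal promoter, which was not placed, was not determined. The step at chr16:92816001-92818000, 119.4 kb before it, had 69.8% (54.97 to 81.5) in HSPCs and 98.0% (90.7 to 99.6) in B cells of wild-type mice, and 90.0% (77.0 to 96.0) in HSPCs and 98.96% (91.0 to 99.9) in B cells of Sca1-BCL6Δ mice. Both B cell libraries were above both HSPC libraries, with wild-type HSPCs lowest. The rise of 28.16 points between the wild-type libraries (chi-square adjusted p = 0.005018) was seen at 8 of 8 CpGs with 3 or more reads in both. The step at chr16:92744001-92746000, 47.4 kb before the start, had 55.6% (36.3 to 73.3) in HSPCs and 95.5% (84.5 to 98.8) in B cells of wild-type mice, and 95.7% (79.0 to 99.2) in HSPCs and 100% (86.2 to 100) in B cells of Sca1-BCL6Δ mice. Its rise of 39.90 points (chi-square adjusted p = 0.02707) rested on the wild-type HSPC library alone being low, and of its 3 CpGs with 3 or more reads in both wild-type libraries 2 rose and 1 was equal.

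Spi1 gave the only called fall. The step at chr2:90936001-90938000 had 29.4% (16.8 to 46.2) in HSPCs and 9.02% (4.52 to 17.2) in B cells of wild-type mice, and 23.5% (12.8 to 39.3) in HSPCs and 5.17% (1.39 to 17.4) in B cells of Sca1-BCL6Δ mice. Both B cell libraries were below both HSPC libraries. The difference between the wild-type libraries was -20.40 points (chi-square adjusted p = 0.005228). Of its 6 CpGs with 3 or more reads in every library, 4 had both HSPC levels above both B cell levels. At the CpG at 90937278 the levels were 66.7% of 6 reads in HSPCs and 8.33% of 24 in B cells of wild-type mice, and 40.0% of 5 in HSPCs and 0% of 15 (which allows up to 20%) in B cells of Sca1-BCL6Δ mice. The neighbouring CpGs at 90937337 and 90937352 did not share this order. The call depended on where the steps began, since with 1 kb steps, or with 2 kb steps shifted by 1 kb, no Spi1 step was called. In the Sca1-BCL6Δ libraries the same step differed by -18.36 points (chi-square unadjusted p = 0.0246, adjusted p = 1).

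**Figure D4:**
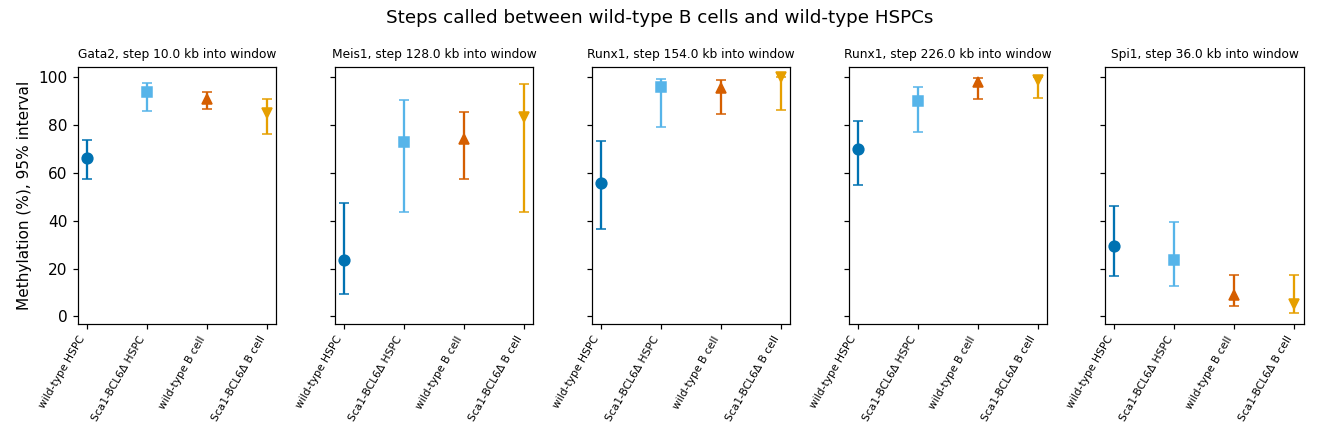
Methylation (%) with its 95% Wilson interval in the 4 libraries at the 5 steps called between wild-type B cells and wild-type HSPCs, titled by gene and distance from the lower edge of the window. Wild-type HSPCs are below the other 3 libraries in 4 panels, whereas at Spi1 both HSPC libraries (29.4% and 23.5%) lie above both B cell libraries (9.02% and 5.17%).

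With the Sca1-BCL6Δ HSPC library in place of wild-type HSPCs, none of these 5 steps was called against wild-type B cells. The difference was then -3.16 points at the Gata2 step, 1.19 at the Meis1 step, -0.20 and 8 at the Runx1 steps at 92744001 and 92816001, and -14.51 at the Spi1 step. The Spi1 step kept most of its difference and the Runx1 step at 92816001 kept part of it, while the other 3 steps were within 4 points of 0. With the libraries thinned to equal coverage, 0 of 53 testable steps in the windows were called between the wild-type libraries, and 7 in the genome. Whether the level of wild-type HSPCs at these steps belongs to the cells or to the library cannot be told apart, as there was 1 library.

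Between Sca1-BCL6Δ HSPCs and Sca1-BCL6Δ B cells, 0 of 60 steps were called, against 0.0163% in the genome, with 2 at an unadjusted p under 0.05, both in Spi1, or 3.33% against 2.11%. Fisher's exact test called 0 of 56 CpGs, against 0.0183%, with 0 at an unadjusted p under 0.05, against 1.74%. Without a test, 3 steps were 20 points or more higher in B cells and 8 were lower, 18.33% of the steps, against 9.59% in the genome (5.88% higher and 3.71% lower). Of the 8 lower steps, 6 were in Runx1 and 2 in Gata2. The Runx1 steps rested on few reads, 4 to 23 in Sca1-BCL6Δ HSPCs and 2 to 24 in Sca1-BCL6Δ B cells. The 8 lower steps included the Gata2 step at chr6:88142001-88144000, 5.7 kb before the start. Its level was 40.0% in HSPCs and 23.7% in B cells of wild-type mice, and 43.2% in HSPCs and 12.5% in B cells of Sca1-BCL6Δ mice. Both B cell libraries were lower there, but the adjusted p was 1 in this comparison. The test of whether the genotype difference was another in B cells than in HSPCs called 0 of 60 steps, against 0.00435% in the genome, with 7 at an unadjusted p under 0.05, against 4.52% of steps in the genome. Its smallest adjusted p was 0.161, at the Gata2 step at 88140001.

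The order of the 4 libraries gave a view that did not rest on wild-type HSPCs alone. Both B cell libraries were below both HSPC libraries at 8 of 60 steps, against 7.28% in the genome, and above both at 13 of 60, against 28.6%. The 8 lower steps were spread over the genes, 2 in each. The gap between the cell types was widest at the Runx1 step chr16:92602001-92604000 and the Gata2 step at 88142001, followed by the Spi1 step at 90936001. The former had 89.3% in HSPCs and 72.7% in B cells of wild-type mice, and 95.2% in HSPCs and 71.4% in B cells of Sca1-BCL6Δ mice, on 3 CpGs, and the wild-type difference was not called (chi-square adjusted p = 0.8097). Among the 13 higher steps the widest gap was at Spi1, at chr2:90924001-90926000. There the level was 39.4% (19.4 to 63.7) in HSPCs and 69.2% (40.3 to 88.3) in B cells of wild-type mice, and 34.8% (12.9 to 65.8) in HSPCs and 56.7% (31.4 to 78.9) in B cells of Sca1-BCL6Δ mice (chi-square adjusted p = 0.946 between the wild-type libraries). All 4 intervals overlapped. Spi1 thus held steps with either order within 12 kb, of which the lower in B cells was called and the higher was not. Next came Meis1 at chr11:18916001-18918000, 2 kb past the placed start, with 12.8% and 13.6% in wild-type and Sca1-BCL6Δ HSPCs and 28.4% and 25.9% in the corresponding B cells (chi-square adjusted p = 1).

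By genotype, both Sca1-BCL6Δ libraries were above both wild-type libraries at 8 of 60 steps, against 21.4% in the genome, and below both at 13, against 9.64%. Of the 8 higher steps 7 were in Runx1 and 1 in Gata2. The 13 lower steps were 4 in Runx1, 4 in Meis1, 2 in Gata2 and 3 in Spi1. No step with either order was called in either genotype comparison.

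The remaining extremes of each gene, among steps with 20 or more observations in every library, all had an adjusted p of 0.5 or more. At Runx1 the HSPC genotypes differed by 40.10 points at 92744001 (Sca1-BCL6Δ higher) and by -17.4 at 92624001. The B cell genotypes differed by 18.87 points at 92632001 and by -14.71 at 92822001. Between Sca1-BCL6Δ HSPCs and B cells the extremes were 21.37 points at 92624001 and -26.81 at 92822001. Of these steps, the least methylated Runx1 step was that of the proximal promoter, at 20.1% averaged over the libraries, and the most methylated was at 92606001, at 98.4%, which lies 90.6 kb past the start.

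At Meis1 the largest of these differences was at the far end of its window. Its HSPC genotypes differed by 8.03 points at 18926001 and by -11.19 at 18914001, and its B cell genotypes by -4.83 at 18770001. Between Sca1-BCL6Δ HSPCs and B cells the extremes were 24.65 points at 18774001 and -9.83 at 18926001. Among steps with 20 or more observations in every library, its mean levels ran from 7.71% at 18920001, next to the placed start, to 20.2% at 18916001, while the called step at 18898001 had too few observations to enter.

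At Gata2 the largest falls were -15.94 points at 88138001 between HSPC genotypes, -16.54 at 88152001 between B cell genotypes, -13.83 at 88154001 in wild-type development and -22.26 at 88152001 between Sca1-BCL6Δ HSPCs and B cells. The largest rises not given above were 10.96 points at 88146001 between B cell genotypes and 9.20 at 88138001 between the Sca1-BCL6Δ cell types. Among steps with that many observations, the mean level was lowest at the step of the Gata2 start, 9.47%, and highest at the called step upstream, 83.9%. At Spi1 the HSPC genotypes differed by 10.65 points at 90906001, and the B cell genotypes by 7.83 at 90922001 and by -12.56 at 90924001. Between Sca1-BCL6Δ HSPCs and B cells the step at 90924001 was higher by 21.88 points. Among the same class of steps the mean level ran from 9.74% at 90918001 to 95.02% at 90904001.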

How the data were processed

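The members and gene lists were chosen with earlier results of these data known. Reduced representation bisulfite libraries of 4 groups were used, 1 per group. Per the submitters' processing notes the genome build was mm9, and per the deposited methods text the authors used an in-house aligner of Zymo Research, version not stated, against 36-bp ends of MspI-TaqI fragments sized 40 to 220 bp. The authors deposited, per CpG, methylated and total counts as a pair and a score, which equalled the methylated share at 100% of CpGs in every library. Read tables deposited by the authors gave the percent of methylated CpGs and the count of CpGs of each read.

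Levels were methylated over total counts pooled per 2000 bp step (10 or more observations in each of 4 libraries). The 91939 to 91959 testable steps were compared by Cochran-Mantel-Haenszel tests on CpGs more than 50 bp apart. CpGs with 10 or more reads in both libraries were compared by Fisher's exact test. All tests were two-sided, with Benjamini-Hochberg adjustment over the whole genome. The interaction, tested on 91921 steps, compared the log odds ratios of the cell types by a normal approximation to the counts. Tests were checked on simulated reads. These held neither PCR duplicates nor variation between libraries beyond counting, so the check could not cover those. Described by rule were all called steps and CpGs, each gene's extreme differences among steps with 20 or more observations in each library, and its extreme levels; other steps named were chosen after their values were seen. RefSeq promoters (GRCm38.p6) were placed by CpG spacing, which needed 8 coinciding CpGs. Of 32851 promoters 6487 were placed, and 99.85% of these had the strand given by RefSeq. The looser criterion, used for Meis1 and 8430419K02Rik, needed 5 coinciding CpGs in the window. Python 3.11.15, numpy 2.4.6, scipy 1.17.1 and pandas 2.3.3 were used. Alternatives varied depth, step, thinning, test and library.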

Additional observations from a re-analysis of the deposited data

How the results depend on the processing

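No paired analysis was possible because each group had 1 library, and for the same reason no library could be left out of a group. Counts of called steps in the windows were recomputed under each alternative. With all CpGs kept, including neighbours that share reads, 3 steps were called between HSPC genotypes (Gata2 88140001, Meis1 18898001 and Runx1 92712001) and 1 between B cell genotypes (Runx1 92694001), where 0 had been called, and the genome counts went from 14 to 2096 and from 2 to 232. In these 2 comparisons and in Sca1-BCL6Δ development every other alternative left 0 steps called in the windows. In wild-type development the count of steps was 3 with steps shifted by 1 kb, 0 at equal coverage (53 steps testable, 7 calls in the genome against 3763) and 0 with the Sca1-BCL6Δ HSPC library in place of wild-type HSPCs (78 in the genome). That exchange reversed the Gata2 step at 88140001 to -3.157 points and the Runx1 step at 92744001 to -0.198. The count of CpGs was 3 of 456 at 5 or more reads (1429 of 695959 in the genome), 2 of 19 at 20 or more reads (903 of 26095), 1 of 172 without the CpGs of highest coverage (1404 of 269858), 0 of 33 at equal coverage (14 of 70370) and 0 of 72 with the exchange (102 of 131588). The Runx1 step at 92744001 lost its call at CpGs covered in all 4 libraries (chi-square adjusted p = 0.0512) and at CpGs with 5 or more reads in both libraries (0.0547). The Spi1 step at 90936001 fell to -18.34 points at the latter, under the required difference, and no Spi1 step was called with 1 kb steps or with shifted steps. The Gata2 step at 88150001 gained a call at CpGs covered in all 4 libraries (20.52 points) and at CpGs with 5 or more reads in both (21.23). Of the pooled levels, Runx1 in wild-type B cells was 69.43% as a mean over CpGs and 62.89% at shared CpGs, Meis1 in Sca1-BCL6Δ HSPCs was 13.49% and Spi1 in Sca1-BCL6Δ B cells was 51.79% as means over CpGs. The cause of these shifts was not tested, except that equal coverage leaves fewer reads.

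Depth limited the genotype comparisons. A step of median depth in Sca1-BCL6Δ HSPCs had 28 observations on 17.5 reads, so differences of 20 points were often within counting error.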
